A study of Mus musculus with 18 samples.

Results

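The comparison of anti-DLL4 with isotype control antibody in total thymocytes rests on 7 of the 18 arrays of a study of mouse thymus. Its samples were chosen by title: 3 of total thymocytes from C57BL/6 mice injected with an antibody against DLL4, and 4 of total thymocytes from C57BL/6 mice injected with an isotype control antibody, both taken 2 weeks after injection. The other 11 arrays held sorted CD4-CD8- (DN) and CD4-CD8-CD44+CD25- (DN1) cells of such mice. No genotype beyond that strain and no dose, age or sex is given in the labels. Total thymocytes are the unsorted cell suspension of the organ, so any cell released from the thymus could contribute RNA. The study's description counts 3 control thymocyte samples and 4 animals per antibody, whereas 4 control samples are labelled, and all 4 were used. No label ties a sample to an animal, so the p-values below measure a spread between samples, which may be technical. That spread was estimated within the 6 groups of all 18 arrays together, not from the 7 thymocyte arrays alone.

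DLL4 is a ligand displayed by thymic epithelial cells. It binds Notch1 on progenitors that enter the thymus, and the released intracellular part of Notch1 acts with the DNA-binding protein RBPJ to switch on genes of the T lineage. Progenitors that lack this signal are known to be able to enter other blood lineages, including B cells, natural killer (NK) cells and dendritic cells. The thymus also holds small numbers of mature cells of those lineages beside the T-cell precursors that fill most of it.

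RNA was measured with 1-colour Agilent arrays, 1 per sample, after 2 rounds of amplification. A level below is log2 of the processed signal minus the 75th percentile of the array, and levels of different probes are not comparable. That percentile, a measure of array strength, was 4295, 2857 and 442.8 on anti-DLL4 arrays 1 to 3 and 524, 685.9, 2169 and 2468 on control arrays 1 to 4, so weak arrays lay in both groups. Between 68.8% and 75.8% of spots were well above background. The median SD of a gene between arrays of a group was 0.958 log2 units with anti-DLL4 and 0.793 in controls. The arrays lay on several slides, and slides 1, 2 and 4 each carried 1 anti-DLL4 and 1 control array. All 15 measured genes of the list of pre-T receptor, CD3 chains and proximal kinases were well above background on all 4 control arrays. The same held for 14 of 15 B-cell receptor genes and 15 of 15 conventional dendritic cell genes, so detection alone does not set the labelled cell type apart.

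Of 20929 tested genes, 235 rose and 81 fell with anti-DLL4, which is 1.51% in either direction, 1.12% higher and 0.387% lower. A gene was called, and is said to have risen or fallen, at a limma adjusted p under 0.05. Each difference is in log2 units after subtraction of the median over the tested genes, which was -0.47, and the test itself used differences without that subtraction. The median difference was 4.42 among the risen genes and -2.17 among the fallen ones. The groups' arrays did not overlap for 315 of the 316 called genes, against 5.06% of all tested genes higher and 9.66% lower without overlap. The calls were made on these same levels, so that separation largely follows from the calling and adds no separate support. Of the risen genes 151, and of the fallen ones 72, were well above background on all 7 arrays, while 20 risen genes were above background on no control array. When each array was left out in turn, 76 of the risen and 4 of the fallen genes passed in all 7 fits. The count of risen genes was 105 without anti-DLL4 replicate 1, 105 without anti-DLL4 replicate 2 and 136 without control replicate 3. The count of fallen genes was 35 and 9 without anti-DLL4 replicate 1 and 2, 24, 41 and 27 without control replicate 1, 2 and 3, and 149 without control replicate 4.

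The 515 genes of 43 lists of lineages and pathways were read against these shares, and 495 of them were on the array under those names. The lists were written with earlier results of these data known, so an excess of calls on a list may be in part built in. Short lists would often hold no call at a share of 1.51%, so an absence of calls does not show an absence of change. The plot of list members shows the order of the lists: NK receptors, mature B-cell receptors, B-lineage factors and plasma cell genes at the top, and genes of mitosis, of double-positive thymocytes and of the T-cell receptor complex at the bottom.

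Of 5 genes used as lineage markers, 4 rose and 1 did not pass. They do not stand for separate lineages: H2-Aa, for example, is also on the dendritic cell list below. Pax5, a factor that fixes B-cell identity (probe at mm8 chr4:44546164-44546223), stood at -0.07, -1.64 and -2.06 on anti-DLL4 arrays 1 to 3 and at -7.87, -7.42, -7.33 and -8.88 on control arrays 1 to 4. The groups were far apart, and the control arrays were not well above background for this probe, so the rise was at least 48.5-fold (7.09 ± 0.77 SE, adjusted p = 0.000663). Another Pax5 probe, well above background on 5 of the 7 arrays, differed by -0.14, so the rise rests on 1 of its 2 probes. Gzmb, the cytotoxic protease granzyme B (mm8 chr14:55213150-55213209), stood at 4.8, 4.61 and 3.67 against 0.32, 0.91, 0.71 and -0.93. Every anti-DLL4 array was above every control array (4.58 ± 0.52, adjusted p = 0.000971). H2-Aa, a chain of the MHC class II molecule I-A that presents antigen (mm8 chr17:33892022-33892081), stood at 3.24, 3.80 and 2.62 against 0.88, -0.15, 0.70 and 0.56. Its groups did not overlap either (3.20 ± 0.47, adjusted p = 0.00792), though with anti-DLL4 replicate 2 left out the gene no longer passed (adjusted p = 0.0602). Ccr2, the chemokine receptor of inflammatory monocytes (mm8 chr9:123957008-123957067), stood at 0.18, 0.11 and -0.26 against -5.77, -4.59, -5.39 and -3.08, again without overlap (5.19 ± 0.61, adjusted p = 0.00107).

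Tcf7, which encodes the early T-lineage factor TCF-1 (mm8 chr11:52096035-52096094), stood at 6.33, 6.35 and 6.44 with anti-DLL4 and at 8.69, 8.33, 7.53 and 6.92 in controls. All 3 anti-DLL4 arrays lay below all 4 control arrays, but the difference of -1.02 ± 0.55 did not pass (adjusted p = 0.196). It passed with the mean of both Tcf7 probes (-1.64, adjusted p = 0.0406).

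**Figure D1:**
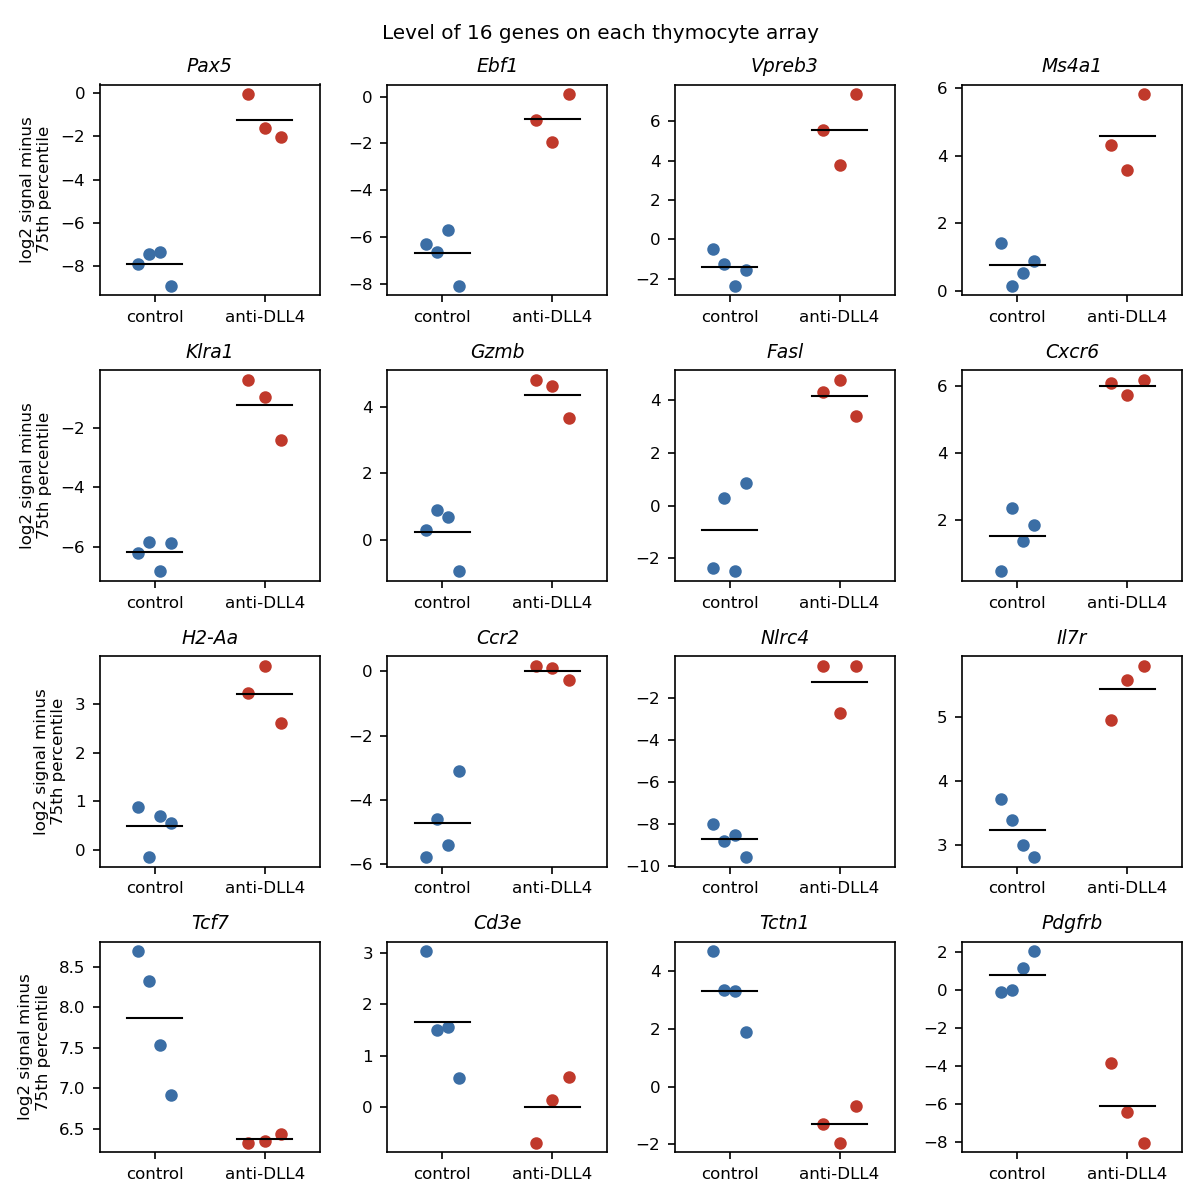
Level of 16 genes (y axes, log2 signal minus the 75th percentile of the array, each panel with its own scale) on the 4 control arrays (blue) and 3 anti-DLL4 arrays (red), with group means as bars. Pax5, Gzmb, H2-Aa and Ccr2 are separated without overlap and pass the test, whereas Tcf7 (6.33 to 6.44 against 6.92 to 8.69) is separated without passing.

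Transcription factors of the B lineage rose beside Pax5. Of 11 tested members, 6 rose and none fell (against 1.12% of all genes higher), with a median difference of 3.37, and 8 of the 11 were well above background on all 4 control arrays. Ebf1, which acts with Pax5 to specify B cells, stood at -1.01, -1.93 and 0.11 against -6.28, -6.65, -5.69 and -8.07. No array overlapped, and only 1 control array was well above background (6.20 ± 0.63, adjusted p = 0.000489). Spib, an ETS-family factor of B cells and plasmacytoid dendritic cells, stood at 5.60, 4.27 and 7.07 against 2.74, 3.31, 2.29 and 2.68 (3.37 ± 0.63, adjusted p = 0.031). Bcl11a, which is needed for B-cell development, stood at 2.93, 2.73 and 4.38 against 0.53, 0.13, -2.63 and 0.95 (4.08 ± 0.72, adjusted p = 0.0224). Mef2c, a factor of lymphoid and myeloid progenitors and B cells, stood at 0.11, -0.60 and 3.19 against -7.91, -8.09, -7.90 and -1.92, so control array 4 lay apart but still below the anti-DLL4 arrays (7.83 ± 1.57, adjusted p = 0.0291). Bach2, a repressor that keeps B cells from becoming plasma cells, differed by 4.52 ± 0.95 (adjusted p = 0.0476). Pax5 and Ebf1 passed whichever array was left out. Only 2 members of the list passed without anti-DLL4 replicate 1 or without replicate 3, and Mef2c kept its call only without control replicate 4 (adjusted p up to 0.0925 otherwise).

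Of 15 tested genes of the B-cell receptor pathway 7 rose and all lay above 0, and the median was 2.70, with 14 of the 15 well above background on all control arrays. Fcrla, an Fc receptor-like protein inside B cells, stood at 4.08, 2.64 and 4.01 against -0.39, -0.22, -1.27 and -0.48 (4.64 ± 0.51, adjusted p = 0.000804). Cd22, an inhibitory co-receptor, stood at -0.97, -1.0 and -1.16 against -5.79, -5.43, -3.55 and -4.49 (4.24 ± 0.60, adjusted p = 0.0048). Cd72, a further inhibitory co-receptor, stood at 3.97, 3.44 and 5.12 against 1.32, 0.97, 1.05 and -0.38 (3.91 ± 0.55, adjusted p = 0.00524). None of these 3 genes showed overlap between the groups on its brightest probe, and each passed in all 7 leave-one-out fits. Another Cd22 probe, well above background on 3 of the 7 arrays, overlapped between groups and differed by 0.92. With the mean of its probes Cd22 did not pass (2.53, adjusted p = 0.232). The signalling kinases and adaptor Lyn, Btk and Blnk rose by 2.70, 4.32 and 3.48, with calls that were lost in 4, 6 and 6 of the 7 leave-one-out fits. Cd79a, a signalling chain of the receptor, did not pass: at -4.46, -4.75 and -2.94 against -3.83, -4.73, -4.99 and -5.06 its groups overlapped (1.07 ± 0.68, adjusted p = 0.67). Another Cd79a probe, above background on the 3 anti-DLL4 arrays and on no control array, was separated, at -3.38, -4.41 and -3.61 against -6.91, -6.51, -7.49 and -7.61. Without anti-DLL4 replicate 1, anti-DLL4 replicate 2 or control replicate 1, 4 members of the list passed.

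Surface receptors of mature B cells added 4 called genes of 11, all higher, with a median of 3.38. Ms4a1, which encodes CD20, stood at 4.31, 3.58 and 5.82 against 1.42, 0.15, 0.52 and 0.89 (4.30 ± 0.65, adjusted p = 0.00776). Tnfrsf13c, the receptor for the survival factor BAFF, stood at 2.90, 1.84 and 2.99 against -2.84, -1.27, -2.83 and -0.82 (4.99 ± 0.57, adjusted p = 0.000908). Both were separated on every array and passed in all 7 leave-one-out fits. Cxcr5, the receptor that guides B cells into follicles, stood at 2.33, 2.02 and 2.18 against 0.31, -0.16, -1.95 and -0.64 (3.26 ± 0.57, adjusted p = 0.0241). Its call was lost without any anti-DLL4 array and without control replicate 3 (adjusted p up to 0.0829). Ly86, a partner of the Toll-like receptor relative RP105, rose by 3.09 ± 0.58 (adjusted p = 0.0363), a call lost in 6 of the 7 fits. Without any 1 of the anti-DLL4 arrays, or without control replicate 3, 2 members of the list passed.

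Vpreb3, a protein of the pre-B-cell receptor assembly (mm8 chr10:75393236-75393295), stood at 5.53, 3.77 and 7.37 against -0.50, -1.23, -2.34 and -1.56, a rise of 7.44 ± 0.97 that all 3 of its probes shared (adjusted p = 0.00173). It was the only called member of 7 on its list, whose median was 2.74, and 3 of the 7 passed when anti-DLL4 replicate 2 was left out. Vpreb1, the surrogate light chain gene, stood at 5.18, 2.09 and 5.74 against 0.79, 1.07, 0.72 and -0.63, without overlap but with an adjusted p of 0.0702 (4.32 ± 1.01). On both genes anti-DLL4 array 2 was the lowest of the 3. The mean level of this list was 0.88 on that array, against 3.46 and 3.94 on the other anti-DLL4 arrays and -0.53 to -0.06 on the control arrays.

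Of 7 plasma cell genes, 4 rose, with a median of 3.34. Irf4, a factor of plasma cells and activated lymphocytes, stood at 3.83, 3.77 and 3.78 against -0.60, 0.56, 1.20 and 0.54 (3.84 ± 0.54, adjusted p = 0.0053). Mzb1, a chaperone of immunoglobulin secretion, stood at 3.35, 3.02 and 3.76 against 1.28, 0.20, 0.11 and 0.56 (3.32 ± 0.48, adjusted p = 0.00713). Both passed whichever array was left out. Sdc1, which encodes the plasma cell marker CD138, rose by 3.34 ± 0.59 (adjusted p = 0.0251) and Prdm1, which encodes Blimp-1, by 5.24 ± 1.07 (adjusted p = 0.0366). Neither passed when anti-DLL4 replicate 1 or 2 or control replicate 1, 2 or 3 was left out (adjusted p of 0.0553 to 0.164), nor did Sdc1 when anti-DLL4 replicate 3 was (0.055). In these bulk samples more cells of a type and more RNA per cell cannot be told apart, for B cells as for every cell type below.

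NK receptors formed the highest list. Of 15 tested members 11 rose, none fell and all lay above 0, with a median of 5.11 (5.02 with unmeasured genes at their bounds), and 9 were well above background on all 4 control arrays. Klra1, a Ly49 receptor for MHC class I, stood at -0.40, -0.96 and -2.41 against -6.18, -5.82, -6.81 and -5.85 (5.38 ± 0.54, adjusted p = 0.000489). Klra8, the Ly49 receptor that recognises a cytomegalovirus protein, stood at 3.15, 2.56 and 1.82 against -3.39, -2.08, -1.76 and -1.27 (5.11 ± 0.69, adjusted p = 0.00237). The groups of both genes were fully separated, with anti-DLL4 array 3 the lowest of its group. Klre1, a lectin-like receptor of NK cells, rose by 5.55 ± 0.69 on its brightest probe (adjusted p = 0.00148), while another probe that was well above background on all 7 arrays differed by -0.34. Il2rb, a chain of the IL-2 and IL-15 receptors, stood at 5.58, 5.51 and 6.15 against 3.88, 3.57, 3.22 and 2.32 (2.98 ± 0.54, adjusted p = 0.0298), and lost its call in 6 of the 7 leave-one-out fits. Klrd1, which encodes CD94, and its partner Klrc1 rose by 3.82 and 5.35. Ncr1, which encodes NKp46, did not pass (2.70 ± 0.84, adjusted p = 0.209). It stood at -1.34 and -3.53 on anti-DLL4 arrays 1 and 2 but at -4.64 on array 3, next to the control range of -5.73 to -4.90. Without anti-DLL4 replicate 1 or 2, 7 members of the list passed. Across the 14 tested Klra genes with a RefSeq name, a family counted after its values were seen, 9 rose (against 1.12% of all tested genes), and Klra21, which has no such name, rose too (4.35, adjusted p = 0.00911). These are near-identical copies whose probes can share targets, so the genes are not independent counts.

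Killer-cell effectors rose in part. Of 13 cytotoxic effectors and regulators, 4 rose and the median was 2.66. Beside Gzmb these were Gzmc, Fasl and Ifng. Fasl, the death ligand, stood at 4.30, 4.78 and 3.40 against -2.35, 0.28, -2.49 and 0.87 (5.56 ± 0.75, adjusted p = 0.00237). Gzmc, a further granzyme, stood at 2.76, 3.54 and 1.98 against -3.45, -1.92, -1.67 and -1.73 (5.43 ± 0.79, adjusted p = 0.00515). Ifng, which encodes interferon gamma, was even across anti-DLL4 arrays (4.98, 5.04 and 4.64) and spread widely in controls (1.13, 0.06, -6.74 and -0.28). Its rise of 6.82 ± 1.29 (adjusted p = 0.0236) was lost without any anti-DLL4 array (adjusted p of 0.055 to 0.0878). On the list of innate lymphoid cells 1 of 8 genes rose: Il18r1, the IL-18 receptor, at 3.70, 2.81 and 3.24 against -0.74, -3.88, -0.43 and -1.0 (5.24 ± 0.78, adjusted p = 0.00592). Id2, the E-protein inhibitor needed by NK cells and innate lymphoid cells, was at 5.58, 5.37 and 4.06 against -1.43, 2.12, 1.77 and 2.55, without overlap and just short of the threshold (4.22 ± 0.90, adjusted p = 0.0507).

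Of 10 genes of MHC class II presentation 3 rose, with a median of 2.27. All 10 lay above 0 and were well above background on every control array. H2-Ab1, the other I-A chain, stood at 5.73, 6.31 and 6.02 against 4.67, 4.30, 3.77 and 3.08. No array overlapped (2.54 ± 0.45, adjusted p = 0.0303), and its 3 other probes differed by 2.81 to 3.5. H2-DMb2, part of the DM chaperone that loads peptides, stood at -2.96, -3.08 and -2.05 against -5.44, -4.99, -5.34 and -6.10 (3.24 ± 0.53, adjusted p = 0.0169). H2-Eb1, a chain of I-E, was separated too (6.33, 6.59 and 6.56 against 5.29, 4.47, 4.41 and 4.16) but did not pass (2.38 ± 0.47, adjusted p = 0.0538). Ciita, the master regulator of these genes, overlapped between groups, at -0.32, 1.56 and 3.69 against -3.92, 1.10, -0.92 and -0.58 (3.19 ± 1.23, adjusted p = 0.299). Cd74, the invariant chain, differed by 0.90 (adjusted p = 0.722). With anti-DLL4 replicate 2 or 3 left out, 1 of the 10 genes passed: H2-Ab1 lost its call in 5 of the 7 fits (adjusted p up to 0.143) and H2-DMb2 without anti-DLL4 replicate 3 (adjusted p = 0.0551).

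Promoter sequences show a feature of these genes that the arrays did not use. MHC class II promoters are known for a Y box, the CCAAT motif bound by NF-Y. The motif CCAAT, searched on both strands, lay within the window from 250 bases before to 50 after a start for 7 of the 7 list genes with a window in the RefSeq table (GRCm38.p6), in 7 of their 8 windows, against 37.4% of 32851 windows. A match is a description of letters and not of binding. The windows of 3 of these genes follow, written 5′ to 3′ along the gene, with the motif in capitals (ATTGG is CCAAT on the other strand). The motif began 48 bases before the start in H2-Aa (GRCm38.p6 chr17:34287774-34288073, minus strand), 90 before it in H2-DMb2 (chr17:34144999-34145298, plus strand), and 59 and 35 before it in H2-Eb1 (chr17:34305617-34305916, plus strand).
H2-Aa: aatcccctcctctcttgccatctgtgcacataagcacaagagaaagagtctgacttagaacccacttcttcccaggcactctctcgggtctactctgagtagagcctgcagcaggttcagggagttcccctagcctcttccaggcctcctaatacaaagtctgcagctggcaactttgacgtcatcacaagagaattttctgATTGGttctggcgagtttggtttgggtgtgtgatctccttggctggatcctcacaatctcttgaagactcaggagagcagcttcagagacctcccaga
H2-DMb2: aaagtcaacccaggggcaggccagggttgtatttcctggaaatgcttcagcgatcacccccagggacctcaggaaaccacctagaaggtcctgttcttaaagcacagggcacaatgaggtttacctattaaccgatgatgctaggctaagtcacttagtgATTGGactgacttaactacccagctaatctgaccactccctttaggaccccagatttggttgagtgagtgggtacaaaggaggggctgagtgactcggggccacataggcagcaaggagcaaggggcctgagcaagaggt
H2-Eb1: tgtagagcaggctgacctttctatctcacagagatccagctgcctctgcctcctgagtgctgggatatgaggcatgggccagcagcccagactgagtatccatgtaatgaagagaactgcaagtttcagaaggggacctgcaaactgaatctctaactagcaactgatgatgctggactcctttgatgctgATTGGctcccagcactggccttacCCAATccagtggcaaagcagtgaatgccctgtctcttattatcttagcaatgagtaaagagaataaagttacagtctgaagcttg

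Of 15 conventional dendritic cell genes 4 rose, with a median of 1.99. Clec10a, a C-type lectin, stood at 2.79, 2.80 and 1.77 against -1.85, -1.19, -1.75 and -0.39 (4.23 ± 0.77, adjusted p = 0.0246). Cd83, an activation marker, stood at 4.64, 4.88 and 4.73 against 0.70, 2.25, 2.37 and 1.97 (3.40 ± 0.53, adjusted p = 0.0114). Neither gene overlapped between groups, and the other called members were H2-Aa and Itgae, which encodes CD103 (3.33 ± 0.65, adjusted p = 0.0407). Clec10a lost its call in 5 of the 7 leave-one-out fits (adjusted p up to 0.103), Itgae in 6, and Cd83 without anti-DLL4 replicate 2 (adjusted p = 0.0602). Without anti-DLL4 replicate 2 none of these 4 called genes passed (limma adjusted p of 0.0602 to 0.166). The 1 list member that passed in that fit was not called with all arrays. Itgax, which encodes CD11c, differed by 1.99 ± 0.87 on its brightest probe (adjusted p = 0.424) and by -0.18 on another. Of 14 plasmacytoid dendritic cell genes 2 rose, Spib and Upb1, an enzyme of pyrimidine breakdown. When anti-DLL4 replicate 1 or control replicate 1 was left out, 1 member passed. Spib lost its call in those fits and also without anti-DLL4 replicate 3 or control replicate 3 (limma adjusted p of 0.0672 to 0.0925). Upb1 stood at 1.71, 1.68 and 0.70 against -3.55, -2.29, -5.45 and -3.84 (5.62 ± 0.68, adjusted p = 0.00125). Siglech, a defining receptor of plasmacytoid cells, differed by 4.86 ± 1.43 with arrays of both groups close together (-2.37 with anti-DLL4 against -2.64 in a control) and did not pass (adjusted p = 0.144). Of 11 lysosomal proteases that cut antigens, 1 rose, Lgmn (2.62 ± 0.50, adjusted p = 0.0458), and it lost the call in 6 of the 7 leave-one-out fits. Ctss, the protease that trims the invariant chain, did not pass (2.13 ± 0.43, adjusted p = 0.0682).

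Of 17 monocyte and macrophage genes Ccr2 alone rose, and all 17 lay above 0 with a median of 1.25. Csf1r, the growth factor receptor of macrophages, overlapped between groups at 2.39, 2.85 and 3.14 against 3.22, 1.76, 1.05 and -0.39 (1.86 ± 0.82, adjusted p = 0.438). None of 10 genes of Fc receptors and complement passed (median 1.46). Fcer1g, the shared Fc receptor chain, was as high on control array 1 (6.00) as on the anti-DLL4 arrays (4.90, 5.17 and 5.91). No neutrophil granule gene of 11 passed (median 0.81), and the mean level of that list was 0.62, -0.92 and 0.28 on the anti-DLL4 arrays, inside or just above the control range of -1.36 to 0.40.

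Pattern-recognition genes held 2 calls of 13, with a median of 2.97. Nlrc4, the inflammasome component that senses bacterial flagellin with NAIP proteins (mm8 chr17:74331390-74331449), stood at -0.48, -2.75 and -0.52 against -7.97, -8.82, -8.52 and -9.56. No control array was well above background, and the rise was at least 54-fold (7.94 ± 0.74, adjusted p = 0.000371), with a difference of 6.75 on its other probe. Tlr3, a receptor for double-stranded RNA, stood at -3.27, -4.28 and -4.40 against -7.98, -7.24, -8.74 and -8.42, at least 8.12-fold higher (4.59 ± 0.58, adjusted p = 0.00181). Both calls held in all 7 leave-one-out fits. Myd88, the adaptor shared by most of these receptors, overlapped between groups (1.06 ± 0.46, adjusted p = 0.546). None of 10 co-stimulatory and checkpoint genes passed (median 1.52). Cd80, a ligand of CD28, overlapped at -6.75, -5.35 and -3.94 against -5.56, -6.45, -7.51 and -6.41 (1.61 ± 1.34, adjusted p = 0.68).

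Of 20 chemokine and chemokine receptor genes 4 rose and all lay above 0, with a median of 3.08. Cxcr6, a receptor of activated T cells, NKT cells and innate lymphoid cells (mm8 chr9:123660185-123660244), stood at 6.07, 5.72 and 6.17 against 0.46, 2.36, 1.37 and 1.83 (4.96 ± 0.47, adjusted p = 0.000489). Its groups were far apart, and the call held in all 7 leave-one-out fits. Ccl3, an inflammatory chemokine, stood at 0.44, 0.28 and -0.20 against -4.0, -5.52, -3.06 and -2.52 (4.42 ± 0.73, adjusted p = 0.0144), but did not pass when anti-DLL4 replicate 1 or 2 was left out (adjusted p up to 0.0667). Cxcr3, the receptor of interferon-induced chemokines, rose by 3.14 ± 0.63 (adjusted p = 0.0476), a call lost in 6 of the 7 fits. Without anti-DLL4 replicate 1 or 2, 2 members of the list passed. Csf2, which encodes GM-CSF, stood at -3.70, -1.57 and 0.45 against -7.95, -8.64, -9.69 and -9.19, at least 42.1-fold higher (7.74 ± 1.09, adjusted p = 0.00253).

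Among common gamma-chain cytokines and receptors 4 of 15 rose: Il7, Il7r, Il2rb and Il4. Il7r, the IL-7 receptor of early thymocytes, B-cell precursors and mature T cells, stood at 4.95, 5.59 and 5.81 against 3.72, 3.39, 3.00 and 2.81 (2.69 ± 0.43, adjusted p = 0.0195). With anti-DLL4 replicate 2 or 3 left out, or control replicate 3, it no longer passed (adjusted p up to 0.0826). Il7 itself stood at -2.25, -2.51 and -3.68 against -7.94, -8.64, -9.11 and -9.19, at least 18.2-fold higher with no control array well above background (6.38 ± 0.76, adjusted p = 0.000971). Il2rg, the shared chain, overlapped between groups (0.52 ± 0.45, adjusted p = 0.961). The median of that list was 0.68, and 1 member passed without anti-DLL4 replicate 2 or 3. Of 11 genes of TGF-beta receptors and SOCS suppressors 1 rose: Socs2, a suppressor of cytokine signalling, at 2.17, 2.29 and 4.11 against -0.97, -2.63, -0.78 and -1.14 (4.71 ± 0.69, adjusted p = 0.00578).

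Immediate-early genes rose in 3 of 17 cases, with a median of 2.04. Atf3, a stress-induced factor, stood at 1.44, 2.21 and 0.75 against -2.19, -2.85, -3.28 and -1.91 (4.5 ± 0.50, adjusted p = 0.000908) and passed in all 7 leave-one-out fits. Fosl2, an AP-1 subunit, rose by 4.02 ± 0.74 (adjusted p = 0.0261) and Ier3 by 4.09 ± 0.81 (adjusted p = 0.0372). Neither passed when anti-DLL4 replicate 1 or 2 or control replicate 1 or 3 was left out (adjusted p up to 0.178). Fos did not pass (1.74 ± 0.60, adjusted p = 0.326), and its level on anti-DLL4 array 3 (3.20) fell inside the control range of 2.17 to 3.34. Heat shock genes, which respond to handling of tissue, held no call among 8 (median 0.26). Their mean level was 3.48, 5.02 and 4.52 on the anti-DLL4 arrays and lay between 3.11 and 4.59 in controls.

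The type I interferon response held no call. None of 16 tested genes passed limma's adjusted threshold, against 1.51% of all tested genes. At an unadjusted p under 0.05, 9 were higher and 0 lower, against 5.93% and 9.73% of all tested genes. Of the 16, 15 lay above 0, and the median was 2.01. Ifit1 stood at -0.22, -0.55 and 1.03 against -3.35, -2.59, -2.50 and -1.09 (2.94 ± 0.70, adjusted p = 0.0904). Isg15, an interferon-induced ubiquitin-like protein, stood at 0.69, 1.63 and 1.64 against -0.83, -0.05, -0.42 and -0.09 (2.14 ± 0.45, adjusted p = 0.074). The arrays of both genes were separated, as were those of 9 of the 16 genes in that direction, against 5.06% of all tested genes. The motif GAAANNGAA of the interferon-stimulated response element lay in the windows of 8 of the 12 list genes that have one (8 of 13 windows), on either strand, against 8.56% of all windows. The Isg15 window (GRCm38.p6 chr4:156200769-156201068, minus strand) is shown because it holds 3 overlapping copies, in capitals, that begin 78, 72 and 66 bases before the start.
Isg15: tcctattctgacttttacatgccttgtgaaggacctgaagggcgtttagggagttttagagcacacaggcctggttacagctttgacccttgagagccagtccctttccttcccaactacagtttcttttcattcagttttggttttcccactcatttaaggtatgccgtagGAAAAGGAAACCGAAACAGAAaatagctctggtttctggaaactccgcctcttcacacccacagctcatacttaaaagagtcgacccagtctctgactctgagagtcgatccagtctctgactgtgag

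The EBF motif CCCNNGGG lay in 3 of 14 windows of B-lineage factors, 2 of 12 of B-cell receptor genes and 0 of 11 of mature B-cell receptors, against 13.7% of all windows. The RBPJ motif TGGGAA lay in 2 of 4 windows of direct Notch targets and in 7 of 11 of mature B-cell receptors, against 25.6%. By gene the latter count was 5 of 8, because some genes have several windows, and the 2 Cd180 windows overlap. These 2 lists had the highest RBPJ shares of those searched. The RBPJ motif lay in 4 of 14 windows of B-lineage factors, 3 of 12 of B-cell receptor genes and 1 of 4 of pre-B-cell genes. For plasma cell, MHC class II and interferon genes the counts were 2 of 6, 3 of 8 and 3 of 13.

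Regulators of stem and progenitor cells rose in 4 of 15 cases, and all 15 lay above 0 (median 2.13, or 1.81 with unmeasured genes at their bounds). Beside Bcl11a and Mef2c these were Kit and Hhex. Kit, the stem cell factor receptor, stood at 0.83, 0.30 and -0.64 against -2.77, -2.49, -3.49 and -1.06 (3.09 ± 0.62, adjusted p = 0.0476). Hhex, a homeobox factor of early lymphoid cells, stood at 1.95, 0.64 and 0.09 against -4.95, -1.14, -5.05 and -2.33 (4.73 ± 0.85, adjusted p = 0.0223). Neither overlapped, but other probes well above background on all 7 arrays differed by -0.29 for Kit and -0.09 for Hhex. No member of this list passed without anti-DLL4 replicate 2. Genes of thymic egress and maturation held 2 calls of 9, Il7r and Cd44. Cd44, the adhesion receptor that marks both the earliest thymocytes and activated lymphocytes, stood at 2.72, 2.28 and 3.32 against 0.43, -0.14, -0.21 and 0.50 (3.1 ± 0.43, adjusted p = 0.00596). Its other probes differed by 4.65 and -0.14. S1pr1, the receptor that drives egress, was separated (3.78, 3.09 and 4.01 against 3.00, 2.54, 2.42 and 2.66) without passing (1.45 ± 0.41, adjusted p = 0.258), and another of its probes differed by -0.25.

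On the T-lineage lists that follow, no gene passed in either direction on its brightest probe, against 1.51% of all tested genes. Lists this short would often hold no call at that share, and Tcf7 passed with the mean of its probes, as given above. Among 12 T-lineage transcription factors the median was -0.21, among 15 genes of the pre-T receptor, CD3 and proximal kinases it was -0.53, and among 10 double-positive stage genes it was -0.65. Cd3e stood at -0.71, 0.13 and 0.58 against 3.04, 1.49, 1.56 and 0.55 (-1.19 ± 0.57, adjusted p = 0.163), with anti-DLL4 array 3 just above control array 4. Rag1, part of the recombinase, stood at 3.23, 2.00 and 1.87 against 5.82, 4.56, 4.53 and 3.99 (-1.88 ± 0.73, adjusted p = 0.125). Cd8a stood at 6.14, 6.19 and 5.56 against 6.33, 7.84, 6.75 and 6.52 (-0.42 ± 0.88, adjusted p = 0.624), and the sign of its difference turned without anti-DLL4 replicate 3 (0.06). Its other probes, above background on all 7 arrays, were separated with differences of -1.28 and -1.64, and the mean of all 3 probes differed by -1.16 (adjusted p = 0.448). For 7 of the 15 genes of the pre-T receptor and CD3 list every anti-DLL4 array was below every control, against 9.66% of all tested genes. Regulatory T-cell genes held no call among 8 (median 1.26). Foxp3 spread over the controls from -6.81 to 1.17, a range that takes in all 3 anti-DLL4 arrays (0.13, 0.30 and -0.54).

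The Notch pathway, the target of the antibody, held no called gene on its lists, against 1.51% of all tested genes. Lists this short would often hold no call at that share, so this does not show that the pathway was unchanged. None of 13 receptors, ligands and cofactors (median -0.11) and none of 8 direct target genes (median 0.89) passed. Hes1, a direct target, stood at 0.72, 0.62 and -0.50 against -0.14, -0.50, 1.53 and -1.38, within the control range on every array (0.88 ± 0.63, adjusted p = 0.753). Ptcra, the pre-T receptor chain and a Notch target, was lower on all anti-DLL4 arrays (1.12, 1.94 and 1.05 against 2.97, 2.51, 3.24 and 3.07) without passing (-1.10 ± 0.83, adjusted p = 0.382). Notch1 stood at 0.13, 0.70 and 1.72 against 3.34, 2.86, 1.79 and 1.20 (-0.97 ± 0.70, adjusted p = 0.34). Dll4, whose protein the antibody binds, was at -3.58, -4.33 and -2.33 against -4.61, -5.32, -6.26 and -4.10 (2.13 ± 0.80, adjusted p = 0.33). E proteins and their inhibitors gave no call among 6, and Tcf3, which encodes the E protein E2A, differed by -0.45 ± 0.53 (adjusted p = 0.426).

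Growth and housekeeping genes held no call, against 1.51% of all tested genes. Medians were -0.10 for 18 DNA replication genes, -0.72 for 15 mitosis genes, 0.04 for 18 ribosomal proteins and -0.09 for 18 genes of oxidative phosphorylation. Mki67 stood at 6.11, 5.70 and 6.12 against 7.95, 8.07, 7.32 and 6.65, and Top2a at 1.33, 0.17 and 1.57 against 4.27, 3.37, 4.05 and 2.83. Both were separated, and neither passed (-1.04 ± 0.62, adjusted p = 0.249, and -2.13 ± 0.72, adjusted p = 0.0826). For 10 of the 15 mitosis genes every anti-DLL4 array was below every control, against 9.66% of all tested genes. Of 14 BCL2 family genes 1 rose, Bcl2a1b, a survival factor with near-identical copies (5.0, 5.06 and 4.81 against 1.39, 1.01, 1.72 and 2.71, or 3.72 ± 0.51, adjusted p = 0.0043), while Bcl2 did not pass (1.90 ± 0.56, adjusted p = 0.225).

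Markers of stromal and other blood cells held 2 calls, and the part of such cells in the results above was not tested. Of 13 thymic epithelial genes only Il7 rose (median 1.65), and Foxn1, the defining factor of that epithelium, differed by -0.63 ± 0.63 (adjusted p = 0.418). The mean level of the epithelial list was -0.99, -0.71 and -0.25 on the anti-DLL4 arrays and between -1.82 and -1.13 on control arrays. Among 12 fibroblast and endothelial genes (median 1.70), Pdgfrb, a growth factor receptor of mesenchyme and pericytes, fell: it stood at -3.87, -6.47 and -8.07 against -0.10, -0.01, 1.12 and 2.02 (-6.42 ± 0.95, adjusted p = 0.00162). Pdgfra, its relative, differed by 4.49 in the other direction (adjusted p = 0.125), and Col1a1 by 1.45 (adjusted p = 0.742). No erythroid gene of 7, mast cell gene of 6 or platelet gene of 6 passed. The largest of these differences was that of Pf4, a platelet chemokine, at -0.42, 0.57 and 0.33 against -7.53, -4.75, -6.78 and -3.16 (6.19 ± 1.49, adjusted p = 0.0676, and 0.0216 with the slide as a block).

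The 10 largest rises that were separated on every array were, in order, Cecr2, Ryk, Nlrc4, Mef2c, Csf2, Col17a1, Aifm2, Vpreb3, Retnla and 1810065E05Rik. Cecr2, a bromodomain protein of chromatin remodelling, stood at 0.87, -1.11 and 1.14 against -8.06, -8.38, -8.79 and -7.87, at least 158-fold higher (9.05 ± 1.16, adjusted p = 0.00148), and by less on its other probes (2.51 and 4.07). Ryk, a Wnt co-receptor, was even within groups, at -0.37, -0.39 and -0.49 against -8.01, -8.71, -9.73 and -9.20 (8.97 ± 0.95, adjusted p = 0.000489). Its bound was at least 96.1-fold, while another probe, well above background on all 7 arrays, differed by 1.95. Aifm2, an oxidoreductase that protects membranes from lipid peroxidation, stood at 0.80, -0.92 and -0.15 against -6.78, -5.62, -8.24 and -8.05 (7.56 ± 0.88, adjusted p = 0.000908). Another Aifm2 probe, well above background on 2 arrays, overlapped between groups (2.97), and the mean of its probes did not pass (5.21, adjusted p = 0.0676). Col17a1, a collagen of epithelial anchorage, was at least 65.2-fold higher (7.60 ± 1.48, adjusted p = 0.0261). Retnla, a secreted product of alternatively activated macrophages, stood at 0.36, 3.83 and 1.48 against -5.99, -6.57, -0.39 and -7.17 (7.39 ± 1.51, adjusted p = 0.0317). Cecr2, Ryk, Nlrc4, Csf2, Aifm2 and Vpreb3 passed in all 7 leave-one-out fits, whereas Mef2c, Col17a1, Retnla and 1810065E05Rik lost their calls in 5 or 6 of them (adjusted p up to 0.162).

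Of the 10 largest falls, 9 are given here: Pdgfrb, Carns1, Esrp2, Tctn1, Sycn, Spag4, Pomc, Ephb2 and Fcna. Tctn1, a protein of the ciliary transition zone (mm8 chr5:122502144-122502203), stood at -1.29, -1.95 and -0.68 against 4.69, 3.34, 3.31 and 1.89 (-4.14 ± 0.67, adjusted p = 0.00233). It and Pdgfrb passed in all 7 leave-one-out fits. Carns1, which makes carnosine, stood at -7.37, -8.24 and -5.90 against -3.67, 1.46, -2.56 and -0.96 (-5.26 ± 1.01, adjusted p = 0.00984) but did not pass when anti-DLL4 replicate 2 was left out (adjusted p = 0.0656). Sycn, a granule protein known from the pancreas, stood at -2.61, -2.91 and -1.05 against 3.60, 3.58, 0.63 and 1.32 (-4.0 ± 0.85, adjusted p = 0.0174). Ephb2, an ephrin receptor, was even with anti-DLL4 at -4.97, -4.90 and -5.25 against 0.05, -0.22, -0.73 and -2.42 (-3.73 ± 0.94, adjusted p = 0.0369). Pomc, the precursor of melanocortins, differed by 0.75 on another probe (-3.73 ± 0.98 on the brightest, adjusted p = 0.0454). Calls of Esrp2, Spag4, Pomc, Ephb2 and Fcna were lost in 4 to 6 of the 7 leave-one-out fits (adjusted p up to 0.196), and that of Sycn without anti-DLL4 replicate 1 or 2 (adjusted p up to 0.0832).

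**Figure D2:**
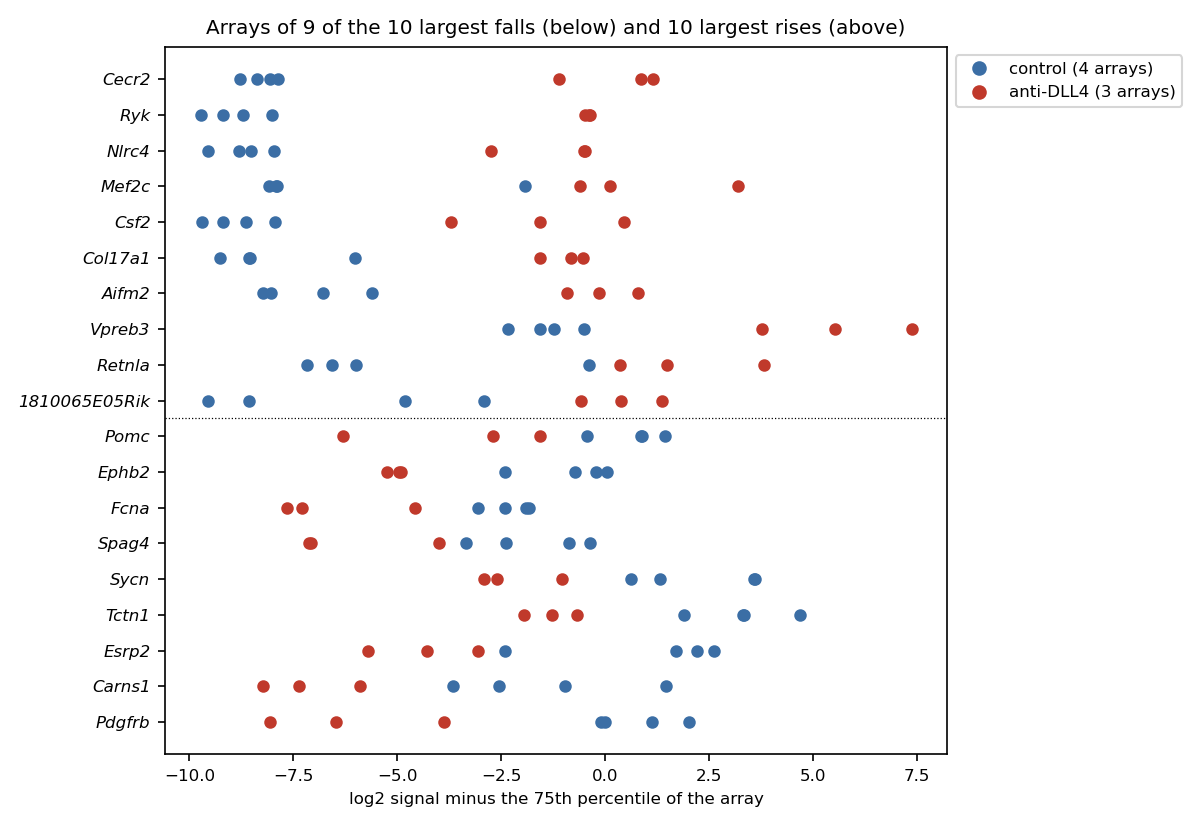
Level (x axis, log2 signal minus the 75th percentile of the array) of 9 of the 10 largest called falls (lower rows) and the 10 largest rises (upper rows), with 4 control arrays in blue and 3 anti-DLL4 arrays in red. Ryk and Ephb2 show tight anti-DLL4 arrays (-0.49 to -0.37 and -5.25 to -4.90), while control array 4 for Mef2c (-1.92) and control array 3 for Retnla (-0.39) lie far from the other controls.

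The lists that led the comparison were higher within each slide. These subsets, and those by array strength below, reuse the arrays that ranked the lists, so they add no separate support. For 14 of 15 NK receptors, for example, every anti-DLL4 array was above every control array, which by itself makes each difference before median subtraction positive. NK receptors had medians of 5.71, 4.33 and 3.53 on slides 1, 2 and 4. B-lineage transcription factors had 3.57, 1.83 and 4.39, mature B-cell receptors 3.74, 3.05 and 3.85, and MHC class II genes 2.14, 2.52 and 1.81. Chemokines and their receptors were even, at 2.87, 3.04 and 2.99. Lists near 0 changed sign between slides: DNA replication had 1.5, -0.30 and -1.82, and direct Notch targets 2.61, 0.72 and -1.35. On slide 4 the anti-DLL4 array was the weak one (442.8 against 2169), and on slides 1 and 2 the control arrays were. Among the 4 brightest arrays (anti-DLL4 1 and 2, control 3 and 4) the NK list had a median of 5.15, and among the 3 dimmest 3.56, with 2.91 and 4.20 for B-lineage factors and 2.40 and 1.66 for MHC class II. With array strength as a covariate 268 genes rose and 104 fell.

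**Figure D3:**
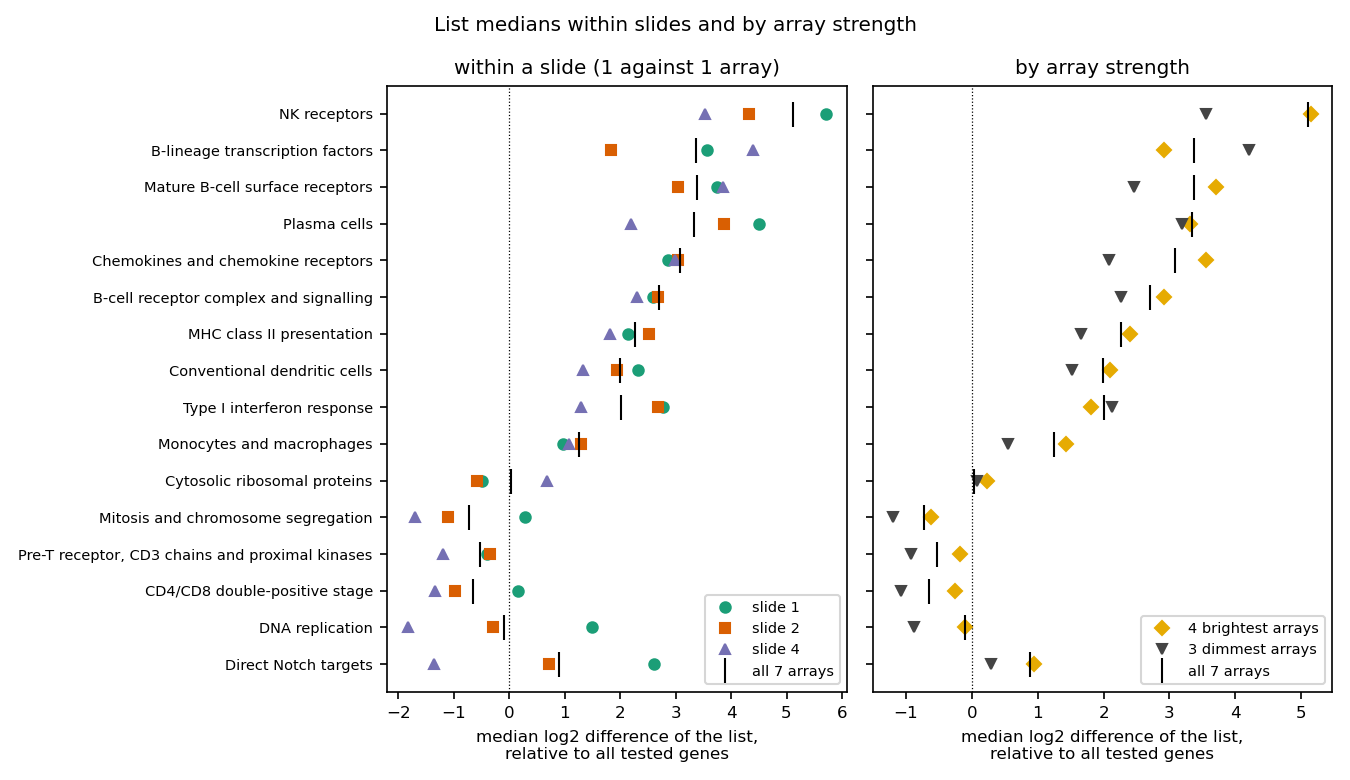
Median difference of 16 lists (x axes, log2 units relative to all tested genes) within slides 1, 2 and 4 (left) and among the 4 brightest and 3 dimmest arrays (right), with the value over all 7 arrays as a bar. B-cell, NK, chemokine and MHC class II lists lie above 0 in every subset, while DNA replication runs from 1.5 on slide 1 to -1.82 on slide 4. The subsets reuse the arrays that ranked the lists and add no separate support.

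The same antibody comparison in sorted DN cells (3 against 3 arrays) and DN1 cells (3 against 2) was set beside these changes. Of the 235 genes that rose in thymocytes, 135 rose in DN cells too, which is 57.4% of the thymocyte calls and 23.6% of the 572 DN calls, and DN cells were called higher for 2.74% of genes. Of the 81 fallen genes, 13 fell in DN cells (16% of the thymocyte calls and 3.99% of the DN calls), and DN cells were called lower for 1.56% of genes. No gene was called in opposite directions. In DN1 cells 3 of the 235 rose, which is 1.28% of the thymocyte calls and 33.3% of only 9 DN1 calls, where 0.0956% of all genes were called in either direction and 0.041% higher. Some animals may have given RNA to arrays of more than 1 population. The comparisons also share the spread estimate of each gene, so their sets of calls are not independent. Medians of the B-lineage transcription factors were 3.37 in thymocytes, 3.45 in DN cells and 0.38 in DN1 cells. For NK receptors they were 5.11, 4.67 and -0.91, and for MHC class II genes 2.27, 4.58 and -0.29.

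Tests of the difference between effects singled out few genes. The effect in DN cells differed from that in thymocytes for 5 of 22331 genes (0.0224%), 2 higher in DN cells (0.00896%) and 3 lower (0.0134%). Aifm2 was among them, at 7.56 in thymocytes and -2.05 in DN cells (difference -9.47 ± 1.29, adjusted p = 0.0131). H2-Aa was at 6.13 in DN cells and 3.20 in thymocytes, a difference of 3.07 ± 0.68 that did not pass (adjusted p = 0.29). Irf4 was at 7.06 and 3.84 (3.36 ± 0.80, adjusted p = 0.309), and Nlrc4 at 2.59 and 7.94 (-5.21 ± 1.08, adjusted p = 0.136).

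The effect in DN1 cells differed from that in thymocytes for 27 of 22633 genes (0.119%), 6 of them higher in DN1 cells (0.0265%) and 21 lower (0.0928%). Of those 21, 7 were Klra genes. Gzmb was at -0.48 in DN1 cells against 4.58 (-5.05 ± 0.82, adjusted p = 0.0403), Cxcr6 at -0.31 against 4.96 (-5.26 ± 0.73, adjusted p = 0.0145), and Klra8 at -2.11 against 5.11 (-7.21 ± 1.07, adjusted p = 0.0177). Klra1 and Klre1 differed by -6.70 and -8.03 (adjusted p = 0.0123 for each) and Tlr3 by -5.62 (adjusted p = 0.0351). Tctn1 went the other way, at 2.20 in DN1 cells against -4.14 (6.35 ± 1.05, adjusted p = 0.0147). Pax5, at 1.66 in DN1 cells against 7.09, did not pass (-5.42, adjusted p = 0.202), and Vpreb3 was at 5.38 in DN1 cells against 7.44 (-2.05 ± 1.51, adjusted p = 0.92). These calls depend on the slide: with the slide as a block 0 and 1 genes passed as higher and lower in place of 6 and 21, and 0 and 0 in place of 2 and 3 for DN cells.

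**Figure D4:**
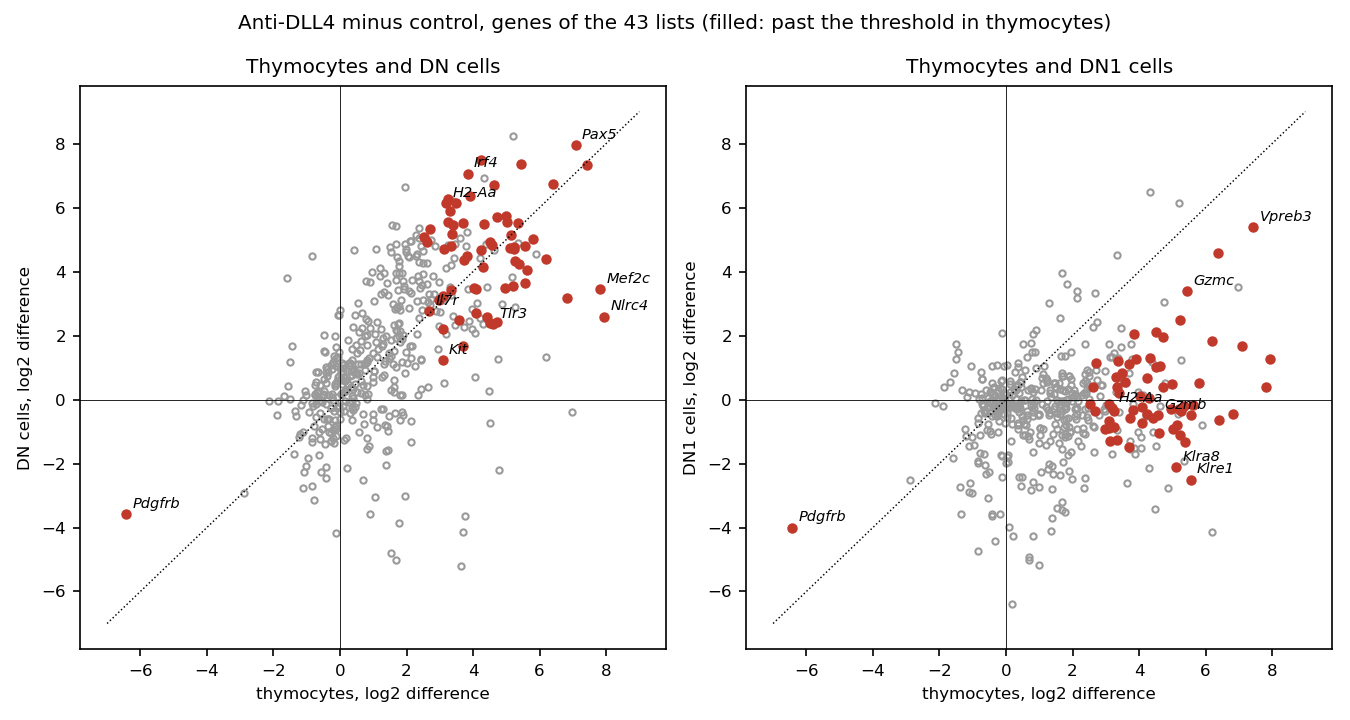
Difference between anti-DLL4 and control in thymocytes (x axes) and in DN (left) or DN1 cells (right, y axes), in log2 units, for the tested genes of 43 lists, with the thymocyte calls filled and the line of equal change dotted. Thymocyte calls such as Pax5 (7.09 and 7.96) lie high in DN cells, while Klra8 (5.11 and -2.11) and Klre1 (5.55 and -2.50) lie below 0 in DN1 cells.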

How the data were processed

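RNA of total thymocytes, amplified in 2 rounds and labelled with Cy3 per the labels' protocols, was hybridised to 1-colour Agilent arrays. Probe intensities were deposited as Feature Extraction 9.5.3.1 output, background-subtracted and detrended within each array per the file headers. The submitters' processing notes name Agilent Feature Extraction 9.5. The well-above-background and control flags used here, codes other than measurements, come from the same deposited files. The authors' series value table holds a linear ratio of each probe to a probe centre, with column medians of 0.638, 0.68 and 1.012 (anti-DLL4) and 1.106, 0.999, 0.864 and 0.866 (control). Between 69.9% and 70.7% of its thymocyte values matched the scanner values within 0.05 log2 units; the centre used for the rest is unknown, and the table served only as an alternative.

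Processed intensities were scaled as log2 minus the 75th percentile of non-control spots of each array. Symbols were updated through RefSeq names, and 19123 of 25589 genes matched. Each gene is given by its brightest probe. Where no array of a group had a probe well above background, that group has only a bound: a fold of at least N sets the brighter group's mean against, per dim array, the higher of the lowest signal above background and the probe's own. limma 3.58.1 in R 4.3.3 fitted 6 group means to all 18 arrays (23120 genes). Genes above background on at least 2 of the 7 thymocyte arrays were tested, with Benjamini-Hochberg adjustment over all of them, and errors of differences are limma's standard errors. On simulated data of the 20929 tested genes, 12% of genes changed by 2 log2 units and 63% of those changed by 4 were called. The number of arrays limits the precision.

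Probe positions are on mm8 as deposited; no annotation of that build was used here, so exons and UTRs are not given. The samples and the gene lists were chosen with earlier results of these data known. Genes named are 5 lineage markers, the 10 largest called rises and falls without overlap (named in RefSeq and above background on every array of the brighter group), and the first member and up to 3 called members of each list with the smallest p. Outside this rule, Bach2, Btk, Blnk, Lyn, Ly86, Prdm1, Klrd1, Klrc1, Ifng, H2-Eb1, Cd74, Ciita, Itgae, Pdgfra, Col1a1, Dll4, Ptcra, Rag1, Il4, Cxcr3, Isg15 and Top2a were chosen after their values were seen. Promoter windows come from the RefSeq table. Alternatives covered scaling, background, filters, probes, blocks, array strength and left-out arrays. Some named genes are not reported here.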

Additional observations from a re-analysis of the deposited data

Results flagged for a closer look

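Among 140 checks for a sample that lies far from the others of its group, 4 stood out, and chance gives about 1 in 20. For Gzmc, control replicate 1 lay at -3.45, below the other controls at -1.92 to -1.67. For Il18r1, control replicate 2 lay at -3.88, against -1.0 to -0.43. For Mef2c, control replicate 4 lay at -1.92, above the others at -8.09 to -7.90. The mean level of the Toll-like receptor and inflammasome list was -3.36 in control replicate 3, against -2.72 to -2.62.

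The effect of the antibody differed between populations for 8 of the genes named, though with the slide as a block 0 genes in all passed as higher and 0 as lower for DN cells, and 0 and 1 for DN1 cells. Aifm2 differed by -9.47 between DN cells and thymocytes. In DN1 cells relative to thymocytes the effect differed by -5.26 for Cxcr6, -5.05 for Gzmb, -6.70 for Klra1, -7.21 for Klra8, -8.03 for Klre1, -5.62 for Tlr3 and 6.35 for Tctn1. The Ly49 genes share sequence and are not separate observations.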

How the results depend on the processing

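Of the 63 called genes named by the rule, 48 to 62 passed under other scalings, background corrections or the series table, 26 with the 4 brightest arrays, 32 with the 7 thymocyte arrays fitted alone and 37 to 55 with 1 array left out, and none changed direction. Against 235 higher and 81 lower, the 7 arrays alone gave 105 and 11, the 4 brightest arrays (chosen after seeing the data) 97 and 19, and leaving out 1 array 105 to 267 and 9 to 149. The count of lower genes was 52 with no filter on dim genes and 46 with the slide as a block. The share of calls that were higher was 74.4%, and 81.7% with quantile normalization. Replicate numbers coincide with slides. Deviations of same-number samples from their group means correlated at -0.244, 0.077 and -0.113. In each such pair 1 array was weak and the other bright, so these values cannot show whether the samples were paired. With the replicate block 285 genes were higher and 61 lower, and 39 of the 63 passed. The median of all tested genes was -0.47, -0.23 with quantile normalization, 0.09 with normexp and -0.62 with the slide as a block.

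For DN against thymocytes, the 2 higher genes became 4 (quantile), 1 (scaling to probes above background on all arrays), 4 (normexp), 0 (slide block), 1 (mean of all probes) and 0 to 2 with 1 array left out. The 3 lower became 5 (normexp), 1 (at least 4 of 7 arrays above background), 0 (slide block) and 0 to 9. For DN1, the 6 higher became 1 (normexp), 0 (slide block) and 3 to 11, and the 21 lower 40 (quantile), 5 (normexp), 1 (slide block) and 13 to 22. Among uncalled genes the sign turned for Cd8a (-0.73 to 0.06 with 1 array left out), Cpa3 (0.25 with the slide block, 0.26 with the replicate block, -1.14 to 0.33 with 1 array left out) and Rplp0 (0.13 quantile, 0.26 mean of probes, 0.15 with array strength as a covariate, 0.06 with the 4 brightest arrays, -0.72 to 0.19 with 1 array left out). The cause was not tested. Probes near background have only bounds.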

Other observations

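Gene families counted after their values were seen add to the lists; they hold only genes with a RefSeq name, and 1.12% of all tested genes rose. Of 13 tested Klrb, Klrc, Klrd, Klre, Klrg and Klrk genes, lectin-like receptors of the NK gene complex, 8 rose (median 5.14). Among 17 chemokine receptors 5 rose. Histone genes included 2 falls among 46 (median -0.41), against 0.387% of all tested genes lower. The Cep, Tctn, Tedc and Tubgcp genes, of centrosome and cilium, had 5 falls and 1 rise among 47 (median -0.30). Each of these symbol groups holds a called fall, and they were joined after the values were seen. Their count therefore cannot be read against the share of all tested genes.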
